A study of Mus musculus with 29 samples.

Results

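Mouse embryonic stem cells (ESCs) that had been returned from inhibitor medium to serum were compared at 2 times after the return, by the methylation of their CpGs. The comparison holds 5 of the 29 libraries of the series. All 5 come from male ESC lines that entered 2i/L, a medium with 2 kinase inhibitors and the cytokine LIF, at passage 4. They stayed in it for 16 passages and were then moved to serum with LIF (S/L). The first group, called p23, was collected after 3 passages in S/L and has 1 library each from each of 3 lines, named J-34, J-35 and J-37. The second group, called p30, was collected after 10 passages in S/L and has 2 libraries, titled J-35 and J-37. The other labels of the p30 library titled J-35 name J-34 as its line, so the groups were not paired by line and it is called the p30 library titled J-35. The libraries were chosen by these titles and not by any measured value. The labels name separate lines and give no repeat cultures of a line, so p-values measure the spread between these libraries only.

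Methylation of the cytosine in CpG dinucleotides is copied at cell division by Dnmt1 with its partner Uhrf1, and is laid down anew by Dnmt3a and Dnmt3b. Serum-grown ESCs carry a largely methylated genome with unmethylated CpG islands. The 2i medium blocks Mek1/2 and Gsk3, and ESCs grown in it are known to lose much of this methylation while CpG islands are low in both states. Return to serum is known to restore methylation at much of the genome, and long culture in 2i has been studied for sequences whose methylation does not return, imprinted regions among them. The question the design poses is how far levels still differ between an early and a later passage after the return.

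Methylation was read by reduced representation bisulfite sequencing (RRBS), which samples CpG-rich restriction fragments. A CpG level is the share of its reads that were methylated, in percent. Over CpGs, the p23 libraries of J-34, J-35 and J-37 held 18336828, 18932734 and 20592309 reads. The p30 libraries titled J-35 and J-37 held 14697050 and 14091911 reads, so every p30 library was shallower than every p23 library, with a median of 6 reads per CpG against 9 to 10. The CpGs used are the 764976 autosomal ones with at least 5 reads in all 5 libraries. They fall into 68054 bins of 1000 bp with at least 3 such CpGs, whose level is the share of methylated reads among the reads summed over these CpGs. Reads given for a bin are these sums, in which a read that covers several CpGs counts at each of them. The labelled cell type was not checked against marker genes, because no expression was measured.

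The 2 groups differed in which CpGs their reads fell on. Across CpGs, the correlation of log2 read depth was 0.634 to 0.648 between p23 libraries and 0.582 between the 2 p30 libraries, but 0.445 to 0.494 between a p23 and a p30 library. The p30 depth was closer to that of cells kept in 2 other inhibitor media, a2i/L and PKCi/L, at passage 20 (0.527 to 0.597) than to that of S/L cells at passage 20 (0.403 to 0.453). For p23 the order was the other way round, with 0.571 to 0.599 against S/L p20 and 0.324 to 0.423 against a2i/L and PKCi/L. Coverage profile and passage move together and cannot be told apart by design, so values on CpGs and bins read evenly in the 2 groups are given beside the results.

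The mean CpG level stood higher in both p30 libraries than in all 3 p23 libraries. It was 26.4% in J-34, 26.2% in J-35 and 25.8% in J-37 at p23, and 27.9% in the library titled J-35 and 28.2% in J-37 at p30. The groups do not overlap, and the highest p23 library lay below the lowest p30 library. The means were 26.1% ± 0.307 (SD, n = 3) and 28.01% ± 0.204 (SD, n = 2), a difference of 1.87 points. The exact two-sided permutation test gave p = 0.2, the smallest p that 3 libraries against 2 allow, so no such test here can pass 0.05. J-37, the line with concordant labels in both groups, differed by 2.62 points on its own.

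The size and the sign of that global difference depended on how CpGs were weighted. Averaged over bins, which gives sparse and dense stretches the same weight, the level was 42.5% ± 0.456 (SD, n = 3) at p23 and 45.5% ± 0.385 (SD, n = 2) at p30, a difference of 2.95 points. With the share of all reads that were methylated, p30 stood lower by 1.12 points, at 23.6% and 25.6% against 25.0% to 26.2%, and here the groups overlap. The 1% of CpGs with the most reads (over 169 in the 5 libraries together) held 11.3% of all reads. Without them the share of methylated reads differed by only -0.0897 points. When every library was given the same weight for each CpG, its reads summed over the 5 libraries, p30 was again higher, by 2.09 points. On CpGs whose share of reads differed less than 2-fold between the groups the mean CpG level differed by 1.91 points.

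**Figure D1:**
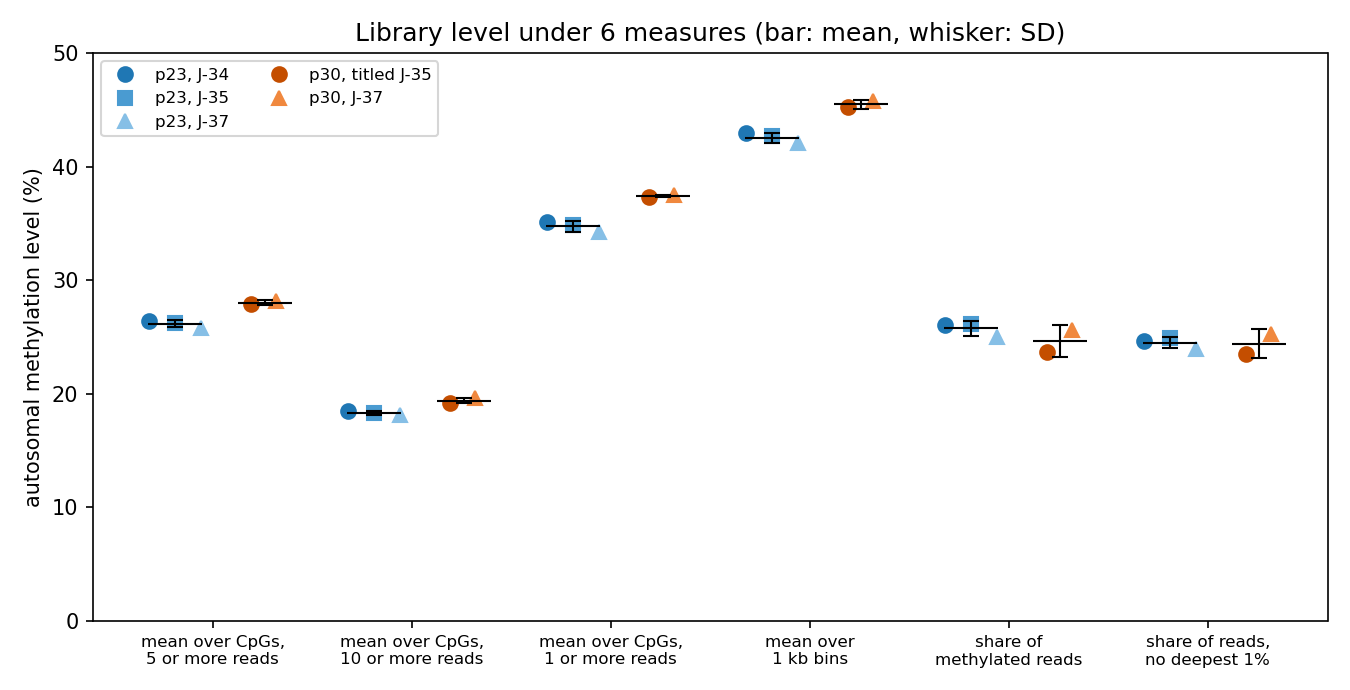
Autosomal methylation level in percent (vertical axis) of the 5 libraries under 6 measures (horizontal axis). Points are libraries, horizontal bars and whiskers the group mean and SD. Both p30 libraries lie above all p23 libraries in the 4 measures that average over CpGs or bins, and the groups overlap in the 2 shares of reads, where the p30 libraries stand at 23.6% and 25.6% over all reads.

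The higher p30 level was found in bins with few measured CpGs, and the difference was near 0 in bins with 10 or more. In the 34256 bins with 3 or 4 measured CpGs the level was 61.7%, 61.3% and 60.3% at p23 and 65.4% and 65.9% at p30. The means of these bins were 61.1% ± 0.759 (SD, n = 3) and 65.7% ± 0.311 (SD, n = 2), 4.55 points apart. In the 16949 bins with 5 to 9 CpGs the difference was 2.61 points, again without overlap of the libraries. The 11776 bins with 10 to 29 CpGs stood at 6.56% and 6.61%, and the 5073 bins with 30 or more CpGs at 0.848% and 0.846%. In both of these classes the libraries overlap (exact two-sided permutation p = 0.8 and 1). Levels near 0 leave little room for a fall. The same 2 classes were also low in S/L p10, at 6.49% and 0.779%. Grouped by S/L p10 level instead, bins at 0 to 10% differed by 0.190 points and bins at 70 to 90% by 4.82 points. CpG number and level in serum were thus not told apart.

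The difference was also spread over the genome. Both p30 libraries exceeded all 3 p23 libraries on 19 of 19 autosomes, by 2.17 points on chromosome 11 to 3.61 points on chromosome 6. All 200 windows of 10 Mb with at least 100 bins had a higher p30 mean, by 0.266 to 7.23 points with a median of 3.12. These windows share the same 5 libraries and are not independent replicates. By position, bins at 50% or more in S/L p10 cells that lay right beside an unmethylated bin of 10 or more CpGs (388 bins) differed by 3.21 points. The difference was 4.05 points at 2 to 4 bins away (1955 bins) and 3.76 points at 5 to 19 bins away (7636 bins). Those at least 20 bins away from one (23855 bins) differed by 5.18 points, so the rise with distance was not even. The 2 p30 libraries exceeded all p23 libraries in each of these classes.

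Coverage was set beside this difference directly. When bins were grouped by the ratio of their p30 to their p23 share of reads, p30 was higher in all 6 classes, from 5.46 points in the 108 bins with the lowest ratio to 2.43 points in bins of near equal share. In the 105 bins whose p30 share was over 2-fold above that of p23 the difference was 3.16 points. Among bins at 50% or more in S/L cells at passage 10, it was 4.64 points where the p30 share was smaller and 5.02 points where it was larger.

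**Figure D2:**
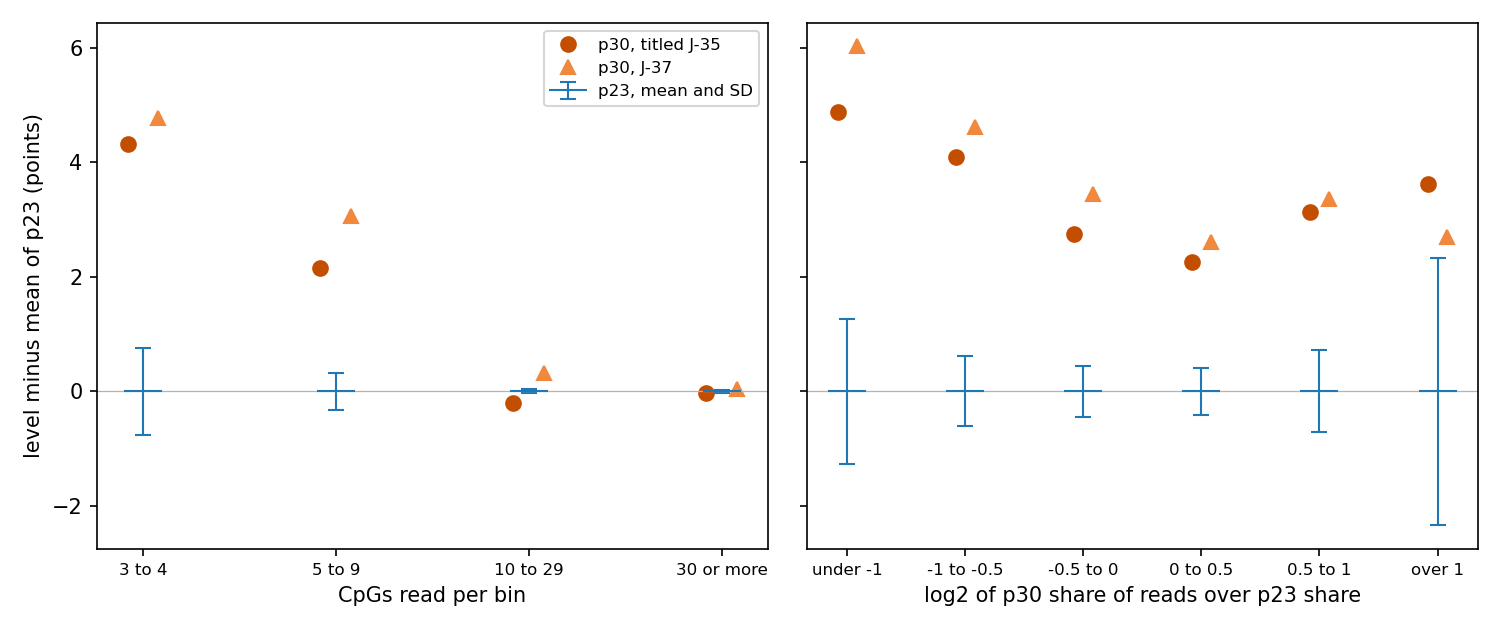
Level of each p30 library minus the p23 mean, in percentage points (vertical axis), by the number of CpGs read in a bin (left) and by the log2 ratio of p30 to p23 read share (right). Blue whiskers show the SD of the 3 p23 libraries around their mean. Differences fall from 4.55 points in bins of 3 or 4 CpGs to about 0 in those of 30 or more, and are above 0 in every class of read share.

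Bins that had been lowest in 2i/L differed most between the 2 passages. This was read over bins at 50% or more in the 3 S/L p10 libraries, split by their level in the 3 libraries of 2i/L p20, cells that had spent the same 16 passages in 2i/L without a return. None of these 6 libraries enters the p30 to p23 difference. In the 1912 bins at 0 to 10% in 2i/L p20 the level was 55.6%, 55.2% and 55.1% at p23 and 63.0% and 63.9% at p30. The means were 55.3% ± 0.242 (SD, n = 3) and 63.4% ± 0.617 (SD, n = 2), 8.14 points apart, and S/L p20 cells stood at 49.3% in the same bins.

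The difference was 5.54 points in the 18619 bins at 10 to 30% in 2i/L p20 and 3.26 points in the 11702 bins at 30 to 50%. It was 2.96 points at 50 to 70% and 1.42 points in the 147 bins at 70 to 100%, which had kept most of their methylation in 2i/L. From the lowest class to the highest, the p23 means were 55.3%, 71.1%, 83.4%, 88.4% and 91.6%. The room left to rise thus shrank along with the difference, and its part in the order of the classes was not tested. Bins in which both p30 libraries lay above all p23 libraries made up 40.4% of the lowest class and 21.1% of the highest, against 23.6% of all bins. Bins with both p30 libraries below all p23 libraries made up 7.48% of the lowest class, 12.9% of the highest and 8.83% of all bins.

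The gap between these classes was compared library by library. The class at 30 to 50% lay above the class at 0 to 10% by 28.9, 28.5 and 26.8 points at p23 and by 23.8 and 22.6 points at p30. The gap was smaller in both p30 libraries than in any p23 library, by 4.88 points between the means (exact two-sided permutation p = 0.2, the smallest possible). The order was the same within a narrower range of levels in serum. Within bins at 70 to 90% in S/L p10 the p30 to p23 difference was 9.85 points where 2i/L p20 stood at 0 to 10% (565 bins, 63.2% to 73.1%). It was 5.69 points at 10 to 30% and 2.91 points at 30 to 50%, and the gap between the outer ones shrank from 19.2 ± 0.611 (SD, n = 3) to 12.2 ± 0.186 (SD, n = 2) points. These classes were still not alike in serum, with S/L p10 means of 77.3%, 81.5% and 85.1%. Their p23 means were 63.2%, 73.9% and 82.4%, so the upper ones had less room to rise.

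**Figure D3:**
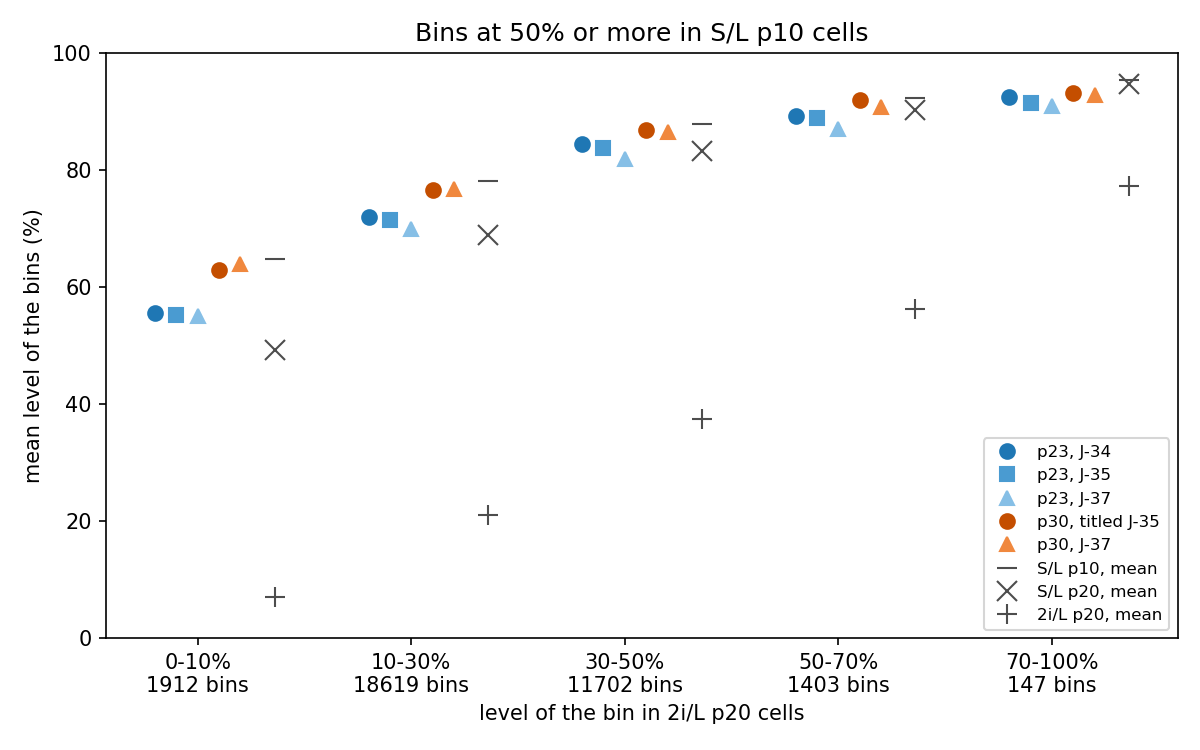
Mean level in percent (vertical axis) of bins at 50% or more in S/L p10 cells, grouped by their level in 2i/L p20 cells (horizontal axis, with the number of bins). Coloured points are the 5 returned libraries, grey marks the means of S/L p10, S/L p20 and 2i/L p20. The p30 points lie 8.14 points above p23 in the leftmost class and 1.42 points above it in the rightmost.

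At p30 more bins were almost fully methylated. Bins at 90% or more made up 7.12%, 6.28% and 4.28% of all bins in the p23 libraries, and 12.7% and 11.5% in the p30 libraries. Bins at 50 to 70% were fewer at p30, with 10.0% and 10.4% against 12.5% to 15.0%. Bins under 10% took the same share, 35.5% ± 0.218 (SD, n = 3) against 35.3% ± 0.624 (SD, n = 2). Shallow bins reach extreme levels by chance more often, so each bin was also thinned to 20 reads in every library. In the 64644 bins this left, those at 90% or more made up 9.79% to 12.7% at p23 and 16.9% to 17.6% at p30.

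**Figure D4:**
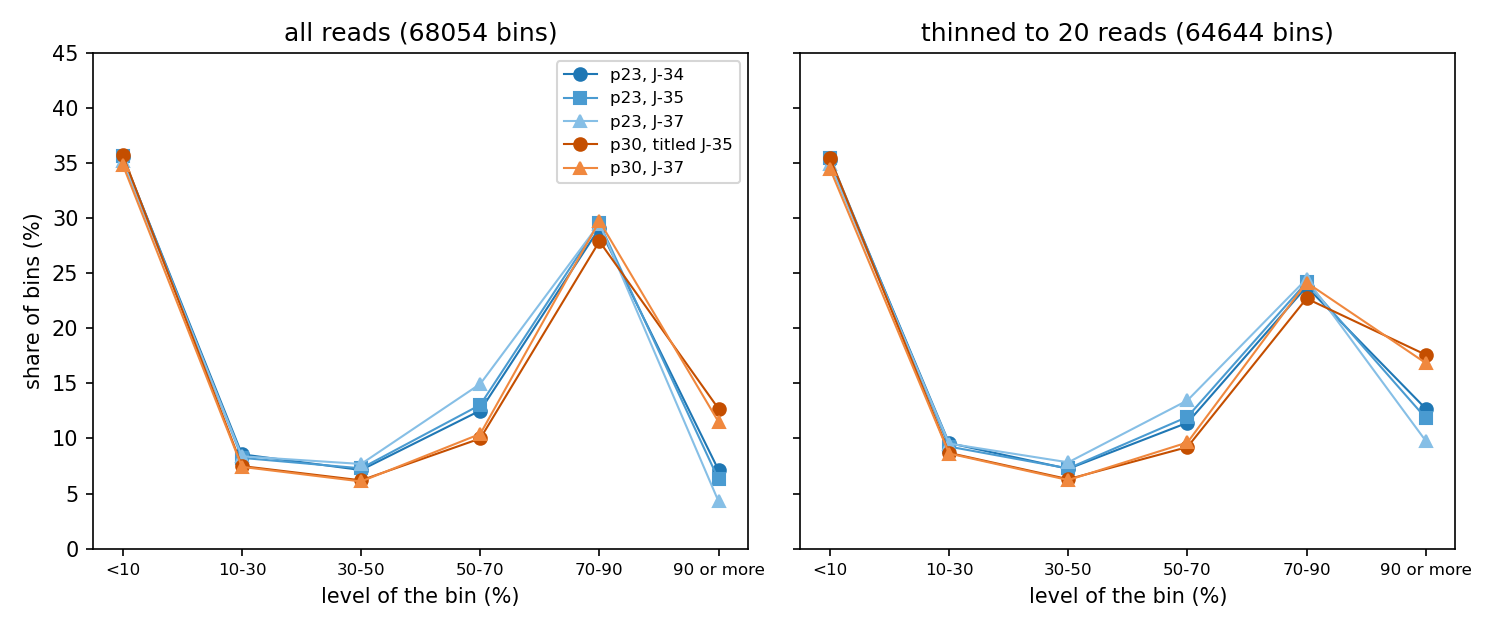
Share of bins in percent (vertical axis) by methylation level (horizontal axis) in each of the 5 libraries, with all reads (left) and with every bin thinned to 20 reads (right). The p30 libraries have more bins at 90% or more (17.6% and 16.9% after thinning) and fewer at 50 to 70%, and all 5 lines meet below 10%.

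Bins that are intermediate in S/L p10 cells were followed too, since imprinted and mixed states lie there, though no imprinted region was identified. The 5860 bins at 30 to 70% in each S/L p10 library stood at 49.0%, 49.2% and 49.3% at p23 and at 52.5% and 55.1% at p30. The difference of 4.59 points was above the spread of both groups, although the 2 p30 libraries differed by more than the 3 p23 libraries did. In S/L p20 these bins stood at 38.7%. A difference of this size was not particular to them. It was 4.82 points in bins at 70 to 90% in S/L p10 and 4.43 points at 90 to 100%, but 2.95 points at 10 to 30%.

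Single bins were harder to separate than these averages. The median bin differed by 0.61 points, and 61.0% of bins differed by less than 5 points. A difference of 20 points or more was present in 2693 bins with p30 higher and in 303 with p30 lower. By limma on log2 ratios of methylated to unmethylated reads, fitted to the 5 libraries, no bin was called higher at p30 (0% of 68054) and 1 was called lower (0.00147%), at an adjusted p under 0.05 and 20 points or more. At an unadjusted p under 0.05 the same test had 10782 bins (15.8%), of which 8811 were higher at p30 (12.9%) and 1923 lower (2.83%). Data for this comparison of 68054 bins were also simulated, with 50 bins changed at each size and 67854 left unchanged. Limma recovered 0% of changes of 20 points, 10% at 40 points, 56% at 60 points and 94% at 80 points. The lack of calls thus says little about changes below 60 points. The shares recovered depend on the share of changed bins, which is not known for the real data.

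Other tests called more bins in the same comparison. A quasi-binomial model on the read numbers called 1456 bins higher (2.14%) and 145 lower (0.213%) at p30. It takes the reads summed over the CpGs of a bin as separate trials, although 1 read can count at several CpGs. Limma fitted to all 8 replicated ESC groups, in which 21 libraries share the estimate of the spread, called 172 higher (0.253%) and 17 lower (0.025%). Of these, 171 and 17 were also called by the quasi-binomial model. With either p30 library left out, which leaves 1 library against 3 and the spread of p23 alone, that model called 0 bins higher and 2 lower. Without 1 p23 library at a time it called 321 to 607 higher and 41 to 62 lower. The bins named below from these fits were chosen after their values were seen, and none but 1 passed the test on the 5 libraries alone.

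The 1 bin that passed that test had its lower level from 1 CpG that was read very unevenly. It lies at chr3:61963051-61963347 in mm9 and has 4 measured CpGs. Methylated reads were 35 of 49, 48 of 67 and 38 of 50 at p23, or 71.4%, 71.6% and 76.0%. At p30 they were 49 of 951 and 45 of 576, or 5.15% and 7.81%, a difference of -66.5 points (limma adjusted p = 0.023). The CpG at 61963346 held 919 and 541 of the p30 reads, with 25 and 15 of them methylated, but only 8, 11 and 12 reads at p23, with 8, 11 and 9 methylated. The other 3 CpGs went the other way, with 27 of 41, 37 of 56 and 29 of 38 methylated reads at p23 and 24 of 32 and 30 of 35 at p30.

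The same CpG held 1068 and 1179 reads in the 2 a2i/L p20 libraries and 1107 and 1903 in the 2 PKCi/L p20 libraries, and at most 13 in any S/L library. A similar bin was chr10:11211843-11211974, with 14 CpGs, at 70.2%, 65.6% and 57.2% at p23 and 9.69% and 12.5% at p30. There 4 CpGs held 6577 and 4665 of the 6695 and 4763 p30 reads, against 39 to 47 reads at p23. Its other 10 CpGs had 98 of 118 and 76 of 98 methylated reads at p30, and 93 of 132, 100 of 153 and 77 of 147 at p23. In all, 58 CpGs in 22 bins had a p30 share of reads at least 8-fold above the p23 share, with a median of 1021 reads at p30, 1434 in a2i/L and PKCi/L, 12 at p23 and 9 in S/L. Only 3 bins called by the quasi-binomial model hold such a CpG, and with bins scored as the mean over their CpGs all 1456 higher and 145 lower calls kept their sign, 1352 and 121 of them at 20 points or more.

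Bins with the highest rise under both other fits were mostly of 3 or 4 CpGs and of 3 kinds. The first kind was high in S/L cells, low in 2i/L, low at p23 and high at p30. At chr8:107199027-107199175 methylated reads were 20 of 55, 16 of 50 and 17 of 64 at p23 and 30 of 34 and 27 of 31 at p30. This is 36.4%, 32.0% and 26.6% against 88.2% and 87.1%, without overlap (limma adjusted p = 0.0983 on the 5 libraries, 0.0314 with all 8 groups). The bin stood at 76.95% in S/L p10 and 74.0% in S/L p20, and 2i/L p20 cells stood at 11.5%.

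At chr1:113324870-113324932 the order was the same, with 30.8%, 23.3% and 16.3% at p23, 79.4% and 66.7% at p30, and 82.0% and 70.7% in S/L p10 and p20. The bin at chr8:60572227-60572367 had 29.5%, 15.6% and 19.6% at p23 and 87.0% and 57.5% at p30, where its 2 libraries lay 29.5 points apart, and stood at 76.2% and 75.7% in S/L. In these 3 bins p30 was near the serum cells that had never been in 2i/L, and p23 was not. The likeness was not particular to serum cells. In the order named, a2i/L cells stood at 65.2%, 71.3% and 52.8%, and PKCi/L cells at 81.2%, 80.5% and 79.9%.

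The second kind was higher at p30 than in S/L and near the level of a2i/L. The bin at chr3:136423143-136423267 had 21.2%, 21.1% and 15.0% at p23 and 70% and 72.0% at p30. It stood at 34.3% in S/L p10 and 12.6% in S/L p20, but a2i/L cells stood at 78.3% and PKCi/L cells at 68.9%. At chr5:110861009-110861109, with 4 CpGs and 62 to 103 reads, the level was 27.4%, 30.6% and 29.1% at p23 and 76.2% and 84.4% at p30 (limma adjusted p = 0.0983 on the 5 libraries, 0.0108 with all 8 groups). The CpG at 110861108 did not share the rise, with 63.6%, 51.9% and 58.8% at p23 and 44.4% and 66.7% at p30. The bin stood at 56.0% in S/L p10, 38.4% in S/L p20 and 79.6% in a2i/L, while PKCi/L cells stood at 62.2%, nearer to S/L p10 than to p30.

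The third kind stood at p30 well above the means of S/L p10, S/L p20, a2i/L and PKCi/L. Among the 12 bins of the largest rise, chr16:87716174-87716216 had a mean of 79.5% at p30 and at most 52.2% in these cells, in a2i/L. Others of the 12 stood above all these means by less, such as chr1:135565662-135565691, with 56.0% at p30 and 42.5% in a2i/L. At chr3:37571826-37571976 methylated reads were 7 of 87, 5 of 64 and 8 of 64 at p23 and 23 of 34 and 16 of 31 at p30. The levels of 8.05%, 7.81% and 12.5% and of 67.6% and 51.6% do not overlap, and the highest mean in S/L, a2i/L or PKCi/L was 26.5%, in PKCi/L (limma adjusted p = 0.00162 with all 8 groups). A further bin was chosen for standing farthest above the other media at p30, so that its low level elsewhere is a description. There, at chr9:66123171-66123255, the reads were 0 of 46, 0 of 49 and 3 of 56 at p23 and 10 of 24 and 12 of 31 at p30, or 41.7% and 38.7%, where no other medium had a mean above 5.39%. The quasi-binomial model called 60 bins in which p30 stood at least 20 points above the means of S/L p10, S/L p20, a2i/L p20 and PKCi/L p20, and 19 in which it stood as far below all 4. Over all 68054 bins, called or not, 168 stood that far above and 61 that far below.

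Among the bins lower at p30, those not read unevenly included 4 that were high in S/L, a2i/L and PKCi/L and low in both p30 libraries. A further bin high in these media, chr10:56427758-56427768, had 83.7%, 78.4% and 88.9% at p23. Its p30 libraries titled J-35 and J-37 stood far apart, at 19.05% and 63.9%. At chr12:45332523-45332547, with 5 CpGs, methylated reads were 43 of 55, 26 of 39 and 57 of 65 at p23 and 18 of 66 and 9 of 33 at p30. These are 78.2%, 66.7% and 87.7% against 27.3% in both p30 libraries (limma adjusted p = 0.102 on the 5 libraries, 0.0392 with all 8 groups), and the means in S/L p10, S/L p20 and a2i/L were 88.1%, 89.3% and 94.96%. At chr2:86682906-86682926 the level was 75.9%, 72.2% and 88.9% at p23 and 22.2% and 36% at p30, and at chr6:26230141-26230158 it was 73.2%, 86.3% and 78.1% against 35.3% and 31.0%. The bin at chr14:91574645-91574669 had 54.2%, 88.1% and 72.7% against 18.5% and 20.8%, but an S/L p10 library had no read there. These 4 bins span few bases, and their 24 to 66 reads per library are sums over neighbouring CpGs. A single CpG in them had only 5 to 28 reads in a library. At chr12:45332523-45332547 each of the 5 CpGs had 11 reads in the p23 library of J-34, which make up the 55.

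The better-read bin chr17:72024390-72024525, with 8 CpGs, had 107 of 119, 127 of 139 and 136 of 156 methylated reads at p23 and 70 of 121 and 39 of 76 at p30. Its level was 89.5% ± 2.13 (SD, n = 3) at p23 and 54.6% ± 4.62 (SD, n = 2) at p30 (limma adjusted p = 0.0983 on the 5 libraries, 0.0163 with all 8 groups). S/L p10 and p20 cells stood at 83.3% and 87.1% there, and 2i/L p20 cells at 22.0%.

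**Figure D5:**
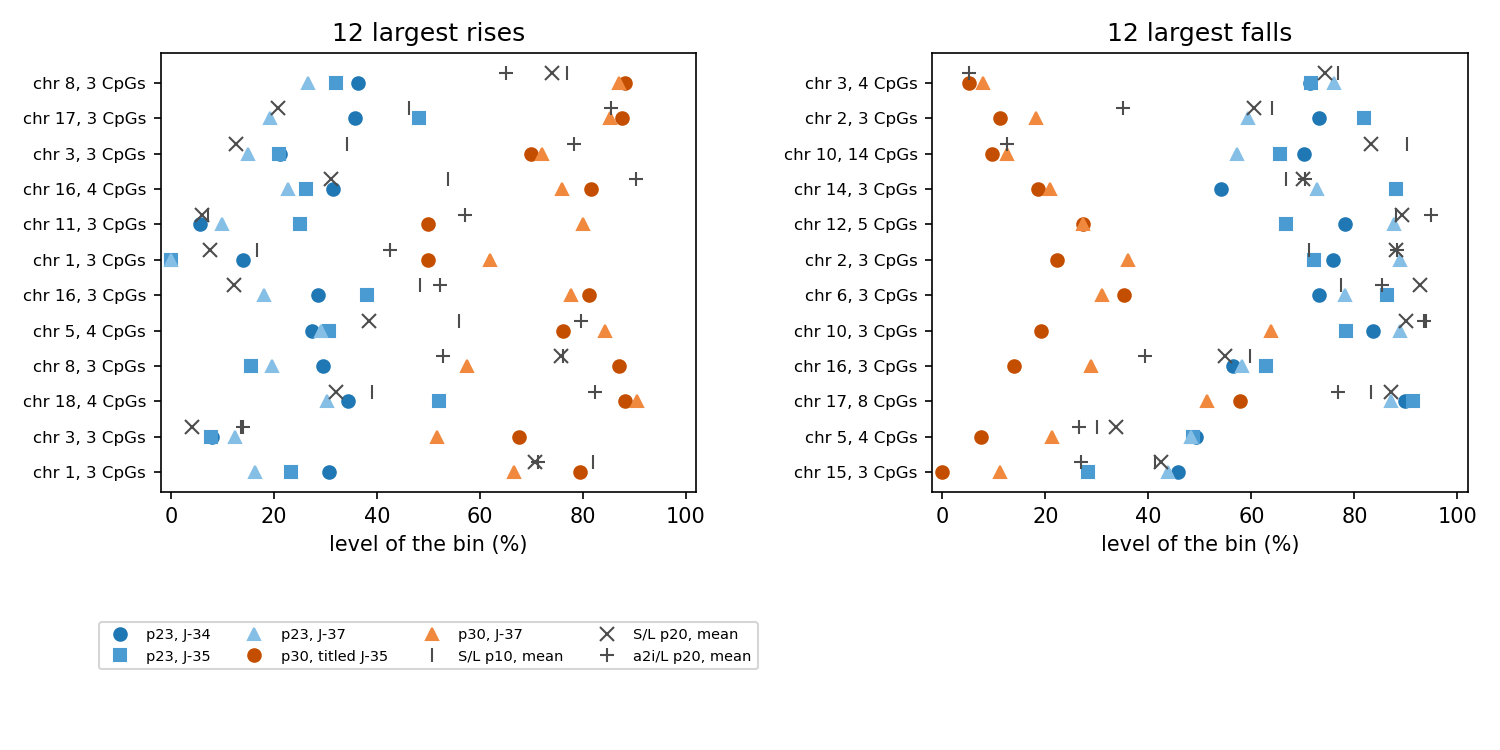
Level in percent (horizontal axis) of the 12 bins with the largest rise (left) and the largest fall (right) from p23 to p30 among bins called by both the quasi-binomial model and limma on all 8 groups, chosen after their values were seen. Coloured points are the 5 returned libraries, grey marks the means of S/L p10, S/L p20 and a2i/L p20. In the top right bin, on chromosome 3, p30 stands at 5.15% and 7.81% and 1 CpG holds most of the p30 reads.

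Some called bins lay together. The quasi-binomial calls formed 31 runs of higher bins and 5 runs of lower bins whose starts lay within 5000 bp of each other. The longest run, of 3 bins, was chr8:25462325-25465507 with 15 CpGs. Its level was 22.2%, 20.5% and 21.5% at p23 on 339 to 376 reads, and 63.5% and 64.7% at p30 on 211 and 218 reads. The means over its bins were 32.1% in S/L p10, 20.9% in S/L p20 and 62.3% and 71.6% in the 2 other inhibitor media, so p30 was well above the serum cells.

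In the run at chr7:134754686-134755382, also with 15 CpGs, p30 lay between p23 and serum cells. It stood at 43.7%, 31.5% and 33.2% at p23 and at 71.4% and 55.1% at p30, below the means of 72.8% in S/L p10 and 78.8% in S/L p20. The run at chr8:77095850-77096720, with 11 CpGs, had 49.8%, 48.0% and 46.5% at p23 and 81.8% and 81.1% at p30, with 74.7% and 74.5% in S/L. The lower run at chr2:74576598-74577289, with 16 CpGs, had 70.1%, 67.6% and 67.2% at p23 and 41.1% and 38.3% at p30, with 64.7% and 59.8% in S/L p10 and p20. In a2i/L and PKCi/L the run on chromosome 7 stood at 90.8% and 96.9%. The run at chr8:77095850-77096720 stood there at 83.6% and 82.1%, and the run on chromosome 2 at 56.0% and 62.7%.

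Across the 1456 bins called higher by the quasi-binomial model, the mean level was 45.3% at p23, 73.9% at p30, 61.9% in S/L p10, and 51.4% in S/L p20. The 2i/L p20 mean was 15.4%. Cells in a2i/L stood at 69.7% and cells in PKCi/L at 70.3%, the media whose read depth the p30 libraries share. The mean of a2i/L and PKCi/L was nearer to p30 than to p23 at 83.0% of these bins and at 57.2% of all bins. That of S/L p10 was nearer to p30 at 59.5% of them (49.5% of all bins), and that of S/L p20 at 34.5% (41.2% of all bins). At the 145 bins called lower the shares were 47.6% for a2i/L and PKCi/L, 23.4% for S/L p10 and 44.8% for S/L p20. The levels at p23 and p30 chose these bins, so their p23 and p30 means are a description. The part of the shared coverage profile in the likeness of the higher bins to a2i/L and PKCi/L was not tested.

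Pairs of libraries differed more between the passages than within them. The mean absolute difference per bin was 4.89 to 5.07 points between p23 libraries, 5.82 points between the p30 libraries and 6.70 to 7.24 points between a p23 and a p30 library. With every bin thinned to 20 reads it was 7.54 to 7.79, 7.56 and 8.45 to 8.98 points. After thinning, the pair from line J-37 stood 8.92 points apart, inside the range of the pairs between passages.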

How the data were processed

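Per the labels' protocols, 12 barcoded RRBS reactions were pooled before bisulfite conversion and libraries were read on a HiSeq2500. Per the submitters' processing notes BSMAP 2.89 and mm9 were used; read filters were not stated there. The authors deposited, per CpG, methylated over all reads as text and a score, which in a check was the share times 1000 with the decimals dropped. The text field was recorded as another unit than counts, so limma 3.58.1 (R 4.3.3) took the place of count tools, on log2((methylated + 1)/(unmethylated + 1)) per bin, two-sided, with Benjamini-Hochberg adjustment. A bin was called at adjusted p under 0.05 and 20 points or more between group means. Named bins come from the 12 largest rises and falls and the runs of calls; since the test gave 1 call, these lists rest on the 2 other fits. The bin on chromosome 9 lies outside them and was chosen after its values were seen. Libraries were compared by exact permutation tests (scipy 1.17.1). Scripts were tested on simulated data. Reads were amplified without molecular identifiers, so their number covers counting error only. Libraries were taken by title, but the comparison, bins and lists were chosen with earlier results of these data known. Coordinates are mm9, first to last CpG. The gene table at hand is GRCm38.p6, so no gene or sequence is given and the gene lists were not used.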

Additional observations from a re-analysis of the deposited data

Results flagged for a closer look

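Chromosome X lay outside the autosomal comparison. Over its 4347 measured CpGs the level was 17.1%, 16.8% and 16.2% at p23 and 18.6% and 18.6% at p30. The p30 mean of 18.6% ± 0.0507 (SD, n = 2) stood 1.92 points above the p23 mean of 16.7% ± 0.420 (SD, n = 3), with p = 0.2 by the exact two-sided permutation test, the smallest it can give. All 5 libraries are labelled male.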

How the results depend on the processing

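The global difference was above 0 under 12 of 14 other settings and below 0 for the share of methylated reads, at -1.12 points with all CpGs (p = 0.4) and -0.0897 points without the deepest 1% (p = 1, chosen after seeing the data), by exact permutation tests. Leaving out 1 library at a time gave 1.71 to 2.18 points. Bins called higher at p30 numbered 1456 by the quasi-binomial model, 172 with all 8 groups in the fit and 0 under every other setting, 0 to 0 without 1 library at a time. Bins called lower numbered 145 by the quasi-binomial model, 17 with all 8 groups, 2 with a minimum of 1 read per CpG, and 0 with the arcsine scale, pseudocount 0.5, a minimum of 10 reads, a depth ratio under 2-fold, without the deepest 1%, with at least 5 CpGs per bin, and without any 1 library (0 to 0). The bin on chromosome 3 differed by 10.9 points (reversed) on CpGs with a depth ratio under 2-fold or without the deepest 1% (limma adjusted p = 0.477 and 0.476). Without any 1 library it stayed at -69.3 to -65.1 points, but with limma adjusted p of 0.141 to 0.278. The order of the 2i/L p20 classes held in 9 of 10 settings, the reported one among them and the others chosen after seeing the data, and none of 45 class differences changed sign. The lowest class ranged from 7.23 to 8.73 points. With a minimum of 10 reads per CpG, the class at 50 to 70% (2.92 points, 213 bins) lay above that at 30 to 50% (2.57). No paired analysis was possible because the groups share 1 line with concordant labels, J-37. Depth limits single bins: 3 libraries against 2, with a median of 51 to 84 reads per bin, summed over its CpGs.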
